A study of Mus musculus with 4 samples.

Results

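The matrix metalloproteinases (MMPs), the ADAMTS proteases and the tissue inhibitors of metalloproteinases (TIMPs) were examined in fibrotic mouse skin. Genes were taken by symbol: every gene named Mmp or Adamts plus a number, and Timp1 to Timp4. This gave 46 of the 24441 genes of the deposited table, namely 23 MMPs, 19 ADAMTS genes and 4 TIMPs, and all 46 were found by symbol at an overlapping place in the GENCODE annotation of mouse build mm9. The table came from RNA-seq of lesional back skin in 4 libraries: 2 of the KO group (GSDMD KO mice) and 2 of the WT group. All animals were female C57BL/6 mice, 8 weeks old by their labels, and all of them received bleomycin (BLM), a cytotoxic antibiotic that scars the skin under which it is injected, every other day over 28 days as a model of scleroderma. The KO mice (GSDMD-/-) were made by injecting Cas9 mRNA and a guide RNA into C57BL/6 eggs and are described as lacking gasdermin D, the pore-forming protein of pyroptosis, with no limit to a cell type. No saline-treated library entered the comparison, so the values compare BLM-treated skin of the 2 genotypes and not the effect of BLM. The sources used here do not say whether a library is 1 animal or a pool, so the p-values measure only the spread between these libraries.

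MMPs are zinc-dependent proteases that cut collagens and other matrix proteins, and most of them are secreted as inactive precursors or anchored in the cell membrane. ADAMTS proteases carry thrombospondin repeats that hold them in the matrix, where several cut the large proteoglycans and others trim procollagen so that it can form fibrils. TIMPs block the active site of MMPs, and TIMP3, which binds to the matrix, also blocks several ADAMTS enzymes and the sheddase ADAM17. In scarring skin these enzymes and inhibitors come from fibroblasts, keratinocytes, macrophages and other leukocytes, so their balance bears on how fast matrix is removed.

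Values are given in FPKM, fragments scaled by transcript length and by the mapped fragments of the library, which can be compared between genes because they are per length. From the steps of low values, 1 fragment on 1 kb of transcript was worth 0.0575 to 0.0784 FPKM, and 3 fragments on 1 kb would stand at 0.173 to 0.235 FPKM. Gsdmd itself, on chromosome 15, had 14.0 and 18.2 FPKM in the WT libraries (replicate 1, then 2, here and below) against 3.53 and 2.26 FPKM in the KO libraries. It was thus lower in both libraries labelled KO, with reads remaining. Keratinocyte markers marked the tissue as skin in every library, and 6 skeletal muscle markers showed that the biopsies also held muscle. Their sums were 21110 and 20125 FPKM in WT, compared with 13155 and 13128 FPKM in KO, and 5 of the 6 were lower in both KO libraries, whose part in the results below was not tested. KO replicate 2 stood apart from the other 3 libraries. The 9 fibroblast markers summed to 369 and 278 FPKM in WT, 590 FPKM in KO replicate 1 and 53.9 FPKM in KO replicate 2, and all 9 were lowest in KO replicate 2. The 10 macrophage markers summed to 1963 and 1962 FPKM in WT, 767 FPKM in KO replicate 1 and 85.9 FPKM in KO replicate 2. The labels call all mice female, yet 4 of 15 Y-linked genes had a value in KO replicate 2, 1.78 FPKM in sum, and all 15 were at 0 in the rest. KO replicate 1 had the highest value of 9 of 10 hair follicle markers, which summed to 333 FPKM there and to at most 24.3 FPKM elsewhere. In bulk skin, fewer cells of a type and less RNA per cell cannot be told apart.

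**Figure D1:**
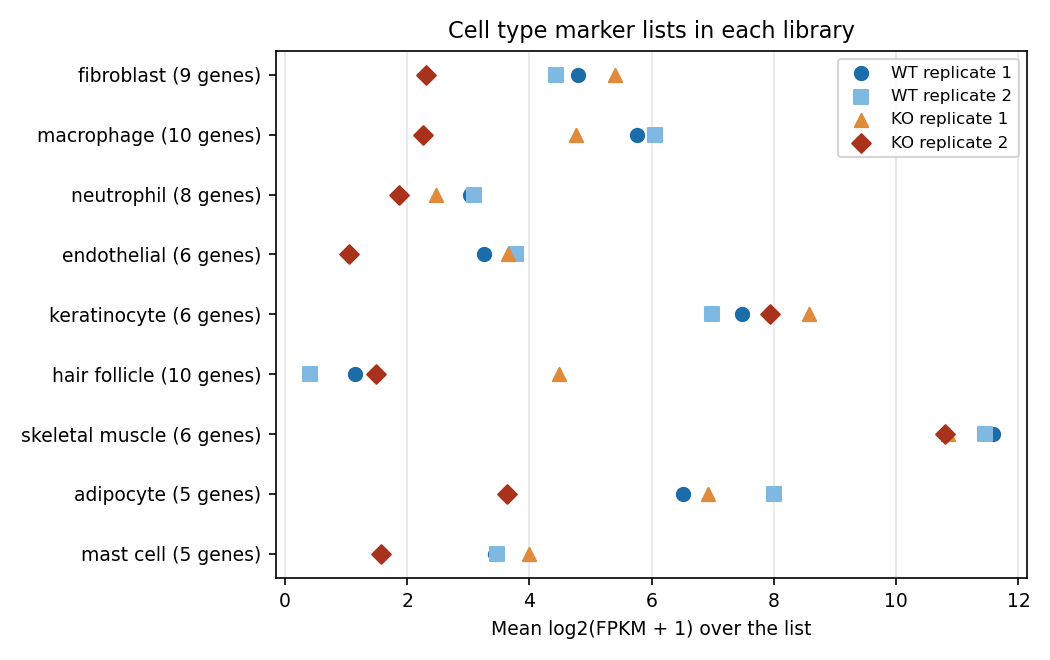
Mean log2(FPKM + 1) of 9 lists of cell type markers (x axis) in each of the 4 libraries (symbols). KO replicate 2 has the lowest point for every list but the keratinocyte and hair follicle ones (for skeletal muscle only just below KO replicate 1), while KO replicate 1 has the highest for the fibroblast, keratinocyte, hair follicle and mast cell lists.

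Of the 46 genes, 25 had at least 1 FPKM in at least 2 libraries and were tested: 11 of 23 MMPs, 10 of 19 ADAMTS genes and 4 of 4 TIMPs. No gene of the 3 families passed the study's threshold between KO and WT skin when it was applied in limma on log2(FPKM + 1). That threshold asks for an adjusted p below 0.05 together with a log2 difference beyond 1 in size. The study itself applied it with DESeq2, and a figure caption lists MMPs among the genes down-regulated in KO skin. That test was not repeated here because the deposited values are FPKM, so the results of the tests are not alike. In limma with Benjamini-Hochberg adjustment over 13027 genes, 0 of the 25 passed, as did 0% of all tested genes. Gsdmd did not pass either (log2 difference -2.14, standard error 0.29, adjusted p = 0.248 by limma). At an unadjusted p under 0.05 with the same fold limit, 3 of the 25 were lower in KO (Mmp19, Mmp9 and Timp1), against 4.14% of all tested genes, and 1 was higher (Timp3), against 6.16% of all tested genes. Here and below a log2 difference is the KO mean minus the WT mean of log2(FPKM + 1), which understates the change of low genes. In 9 of the 25 genes the higher KO value was under the lower WT value, where 20.5% of all tested genes did so. These 9 were Mmp9, Mmp12, Mmp15, Mmp19, Adamts4, Adamts7, Adamts14, Adamts20 and Timp1. Of them, Adamts4 passed the filter through the WT libraries alone, which favours this order. Only Timp3 had both KO libraries above both WT libraries, an order found in 35.3% of all tested genes. In the other 15 genes the groups overlapped. Across all tested genes 539 were lower and 802 higher at the unadjusted threshold, but 707 were lower and 632 higher after scaling with median-ratio factors, which moved the median log2 difference of all genes from 0.11 to 0.01. The deposited values thus lean to KO by 0.11, and the differences below are to be read against that median.

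The median log2 difference was -0.46 for the 11 tested MMPs, -0.31 for the 10 ADAMTS genes and -0.83 for the 4 TIMPs, beside 0.11 for all tested genes. With no filter on low values it was -0.23 for the MMPs and -0.16 for the ADAMTS genes, beside 0.02 for all genes. A pseudocount of 0.1 gave -0.73 and -0.45, beside 0.13. Below 0 were 10 of the 11 MMPs, 8 of the 10 ADAMTS genes and 3 of the 4 TIMPs, against 41.4% of all tested genes as deposited and 49.4% with median-ratio factors. These medians joined 2 KO libraries that were unlike each other. Against the WT mean, the median of the MMPs was 0.26 in KO replicate 1 and -1.63 in KO replicate 2. For the ADAMTS genes the same medians were 0.10 and -0.64, and for the TIMPs they were -0.05 and -1.60. Over all tested genes they were 0.11 and 0.13, so the low values of KO replicate 2 were not shared by the median gene of that library.

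**Figure D2:**
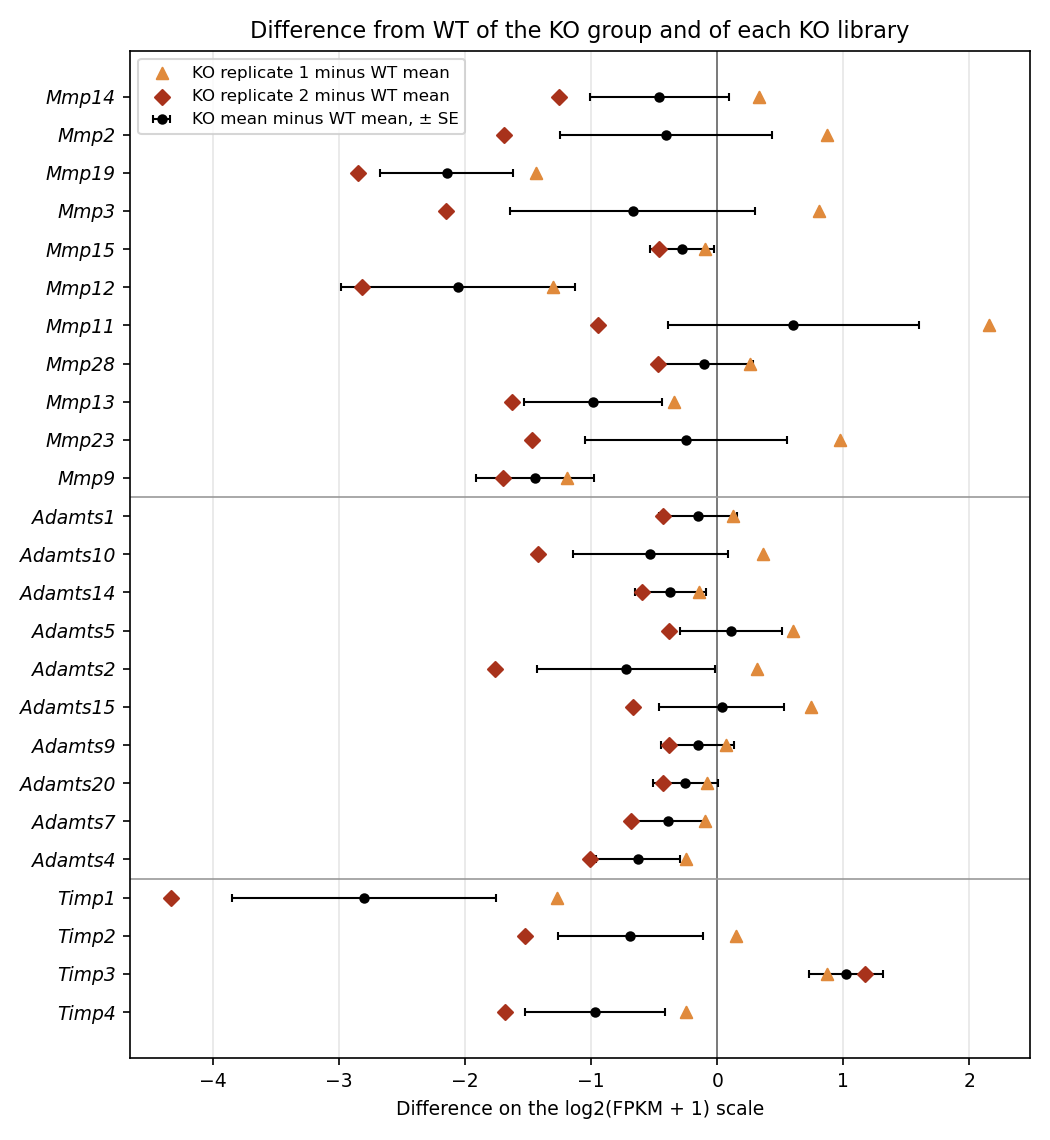
Difference from WT on the log2(FPKM + 1) scale (x axis) for the 25 tested genes: black points with bars are the KO mean minus the WT mean with its limma standard error (n = 2 each), triangles and diamonds the KO replicates 1 and 2 minus the WT mean. The diamonds of KO replicate 2 lie left of 0 for 24 genes, and Timp3 is the exception, right of 0 in both KO libraries.

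Among the inhibitors, Timp1 and Timp3 stood on opposite sides of WT in KO skin. Timp1, a secreted inhibitor that is induced in inflamed and scarring tissue (chrX:20447292-20451861 in mm9), had 70.6 and 159 FPKM in WT against 43.2 and 4.30 FPKM in KO. Neither KO value reached the lower WT value, but the KO libraries were 10.05-fold apart and the WT libraries 2.25-fold. The log2 difference was -2.80 (standard error 1.05, adjusted p = 0.282 by limma). Leaving out KO replicate 2 gave -1.27 and leaving out KO replicate 1 gave -4.33. Such a fit holds 1 KO library and takes its spread from WT alone, so for single genes only its effect size is given, here and below. The low value of KO replicate 2 rests on an estimated 48.5 fragments.

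Timp3, the matrix-bound inhibitor (chr10:85763117-85812251 in mm9), had the opposite order. It had 21.7 and 14.7 FPKM in WT, compared with 33.7 and 41.6 FPKM in KO, that is 18.2 ± 4.94 and 37.6 ± 5.59 FPKM (SD, n = 2 each). It was the only one of the 25 tested genes whose highest value was in KO replicate 2, the library in which the other 24 had their lowest. The log2 difference was 1.02 (standard error 0.29, adjusted p = 0.248 by limma). Leaving out KO replicate 2 gave 0.87, and leaving out KO replicate 1 gave 1.17. With median-ratio factors it was 0.91 and with WT replicate 2 left out 0.76, both under the fold limit. Exons of Timp3 overlap exons of Syn3 on the opposite strand, and the sources do not state whether fragments were counted by strand. The 6 keratinocyte markers summed to 3490 and 2738 FPKM in WT against 7790 and 5012 FPKM in KO, with 0 of 6 at 0 in any library. Their sum was, like Timp3, higher in both KO libraries, as were 4 of the 6 genes. Krt1 and Krt10 were instead lowest in KO replicate 2, where Timp3 was highest. The hair follicle sums were higher in KO as well, at 14.7 and 4.003 FPKM in WT against 333 and 24.3 FPKM in KO. The part of either list in the Timp3 values was not tested.

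Timp2, which blocks MMP2 and also helps MMP14 to activate it (chr11:118162383-118217054 in mm9), had 52.4 and 41.3 FPKM in WT against 51.6 and 15.5 FPKM in KO. KO replicate 1 lay between the WT libraries and KO replicate 2 below them, with a log2 difference of -0.69 (standard error 0.58, adjusted p = 0.531 by limma). It turned to 0.15 with KO replicate 2 left out and was -1.52 with KO replicate 1 left out. Timp4, an inhibitor with a narrower tissue range (chr6:115195634-115201867 in mm9), had 4.69 and 8.56 FPKM in WT, compared with 5.20 and 1.30 FPKM in KO, and its groups overlapped as well. Its log2 difference was -0.97 (standard error 0.56, adjusted p = 0.399 by limma). Leaving out KO replicate 1 gave -1.68, leaving out KO replicate 2 gave -0.25 and leaving out WT replicate 2 gave -0.59.

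As shares of the summed TIMP values, Timp1 made up 47.3% and 71.1% in WT replicates 1 and 2, 32.3% in KO replicate 1 and 6.87% in KO replicate 2. Timp3 made up 14.5% and 6.60% in WT, 25.2% in KO replicate 1 and 66.3% in KO replicate 2. The leading inhibitor was therefore Timp1 in both WT libraries, Timp2 in KO replicate 1 with 38.6%, and Timp3 in KO replicate 2. The ratio of Timp1 to Timp3 was 3.25 and 10.8 in WT and 1.28 and 0.104 in KO, so the KO libraries were below the WT libraries without overlap. The smallest p that an exact permutation test (two-sided) allows for 2 against 2 libraries is 0.333, and no model was fitted to the ratio. A ratio within a library does not depend on how that library was scaled, but it does not tell which of the genes moved.

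**Figure D3:**
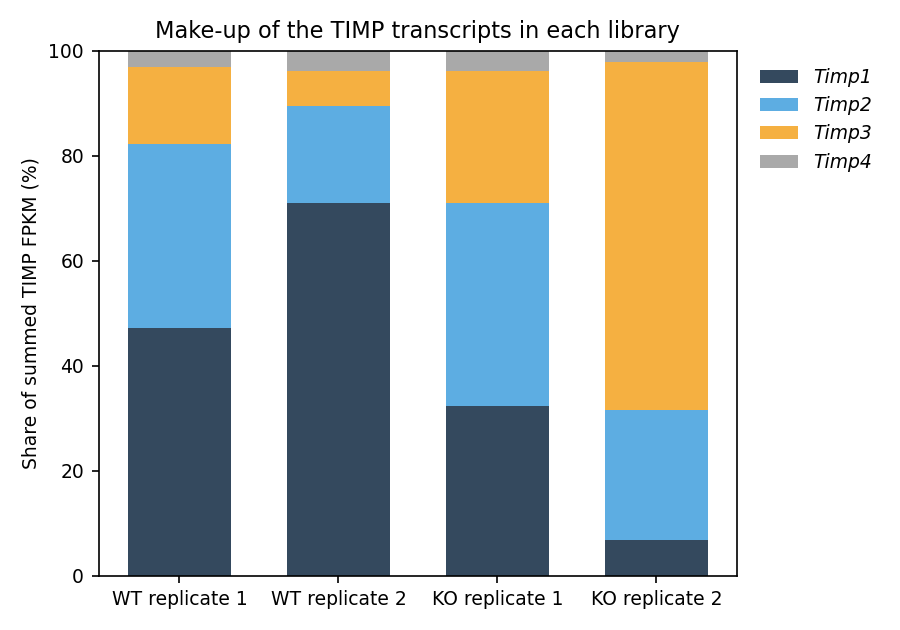
Share of the summed FPKM of the 4 TIMP genes (y axis, percent) in each library. Timp1 is the largest share in both WT libraries (47.3% and 71.1%), Timp2 in KO replicate 1 (38.6%) and Timp3 in KO replicate 2 (66.3%).

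Summed over the 23 MMPs, the values were 142 and 129 FPKM in WT, 165 FPKM in KO replicate 1 and 40.6 FPKM in KO replicate 2. The ratio of the MMP sum to the TIMP sum was 0.954 and 0.580 in WT and 1.23 and 0.647 in KO, and the groups overlapped. Mmp14, the membrane-anchored collagenase that activates pro-MMP2 at the cell surface, was the most abundant MMP in all 4 libraries, with 30.2% and 42.1% of the MMP sum in WT and 37.2% and 48.6% in KO. It had 43.1 and 54.4 FPKM in the WT group against 61.3 and 19.7 FPKM in KO, so one KO library was above and the other below both WT libraries. Its log2 difference was -0.46 (standard error 0.55, adjusted p = 0.659 by limma). The direction turned with KO replicate 2 left out, at 0.33, and with KO replicate 1 left out the value was -1.25. The ratio of Mmp14 to Timp2 was 0.822 and 1.32 in WT and 1.19 and 1.27 in KO. Both KO ratios lay between those of the WT libraries, KO replicate 2 included. Mmp15, another membrane-type enzyme, was among the steadiest members, with 8.63 and 8.93 FPKM in WT against 8.13 and 6.11 FPKM in KO. Its log2 difference was -0.28 (standard error 0.25, adjusted p = 0.561 by limma), and leaving out KO replicate 2 gave -0.10. The other 4 membrane-type MMPs stayed under the filter, and the highest of them was Mmp17, with 0.283 and 0.212 FPKM in WT, compared with 0.801 and 0.593 FPKM in KO. Mmp17 was thus higher in both KO libraries, on an estimated 17.2, 10.5, 38.4 and 26.4 fragments, and it was not tested.

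The 2 gelatinases, which cut denatured collagen and the type IV collagen of basement membranes, had different orders of libraries. Mmp2 (chr8:95351227-95377316 in mm9), made mainly by fibroblasts, had 22.8 and 16.5 FPKM in WT, compared with 36.4 and 5.33 FPKM in KO. Its highest and its lowest value were both in the KO group, 6.83-fold apart, and the log2 difference of -0.41 was smaller than its standard error of 0.84 (adjusted p = 0.806 by limma). Fitted without KO replicate 2, Mmp2 stood at 0.87, and fitted without KO replicate 1 at -1.69. Mmp9 (chr2:164766280-164781350 in mm9), made by neutrophils, macrophages and keratinocytes, had 2.37 and 6.68 FPKM in the WT group against 1.23 and 0.564 FPKM in KO. The groups did not overlap, and the WT libraries were 2.82-fold apart. Its log2 difference was -1.45 (standard error 0.47, adjusted p = 0.258 by limma), -1.19 without KO replicate 2 and -1.70 without KO replicate 1. With WT replicate 2 left out it was -0.85, under the fold limit. The 8 neutrophil markers summed to 764 and 626 FPKM in WT and to 310 and 151 FPKM in KO, and 6 of the 8 were lower in both KO libraries. Most of each sum came from S100a8, with 440, 287, 151 and 107 FPKM in WT and then KO, and S100a9, with 312, 322, 153 and 40.99 FPKM, which keratinocytes make as well. Among the genes closer to neutrophils, Csf3r (3.96, 7.18, 1.91 and 0.1505 FPKM) and Retnlg (5.36, 7.30, 1.88 and 2.24 FPKM) were lower in both KO libraries and lower at the unadjusted threshold, with log2 differences of -1.80 and -1.25. Ly6g and Mpo were at 0 in both KO libraries and at most 0.238 FPKM in WT, while Cxcr2 (1.73, 1.92, 1.76 and 0.590 FPKM) and Elane (0.319, 0.372, 0.599 and 0.216 FPKM) overlapped between the groups. The macrophage list, given above, had 8 of 10 genes without overlap, lower in KO, and 0 of 10 at 0. The keratinocyte list went the other way, and its sum was higher in both KO libraries. The part of these lists in the Mmp9 values was not tested.

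A stretch of chromosome 9 holds 10 of the MMP genes side by side, from 7272514 to 7699585 in mm9 (427 kb): the collagenases Mmp13, Mmp8, Mmp1a and Mmp1b, the stromelysins Mmp3 and Mmp10, macrophage elastase (Mmp12), matrilysin (Mmp7), Mmp27 and Mmp20. Of these 10, only Mmp3, Mmp12 and Mmp13 passed the filter on low values. RefSeq promoter windows of build GRCm38.p6, 250 bases before to 50 bases after a start, were available for 32 of the 46 genes. They were searched on both strands for TGANTCA, where N is any base, and for TATAAA, a core promoter motif. TGANTCA is wider than TGACTCA or TGAGTCA, the usual site of AP-1, the factor pair that growth factors and inflammatory signals switch on. TGANTCA was found in 7.81% of all 32851 windows and in at least 1 window of 8.97% of 27025 genes. It was found in 8 of the 10 genes of the chromosome 9 stretch and in 0 of the other 22 genes of the 3 families with a window. TATAAA was found in 13.6% of all windows and 15.7% of all genes, in 9 of the 10 and in 2 of the other 22 genes. The 3 tested genes of the stretch, and Mmp10 as a low neighbour with the same letters, are shown by the 110 bases before their start, 5′ to 3′ on the plus strand, with the AP-1 letters and TATAAA in capitals. The full window of each was found once on the plus strand of the part of mm9 searched, the start of chromosome 9 that holds this stretch. The rest of the genome was not searched. No run holds an annotated exon, and for Mmp12 the run precedes the RefSeq start that lies inside the gene's locus.
Mmp13, chr9:7272404-7272513: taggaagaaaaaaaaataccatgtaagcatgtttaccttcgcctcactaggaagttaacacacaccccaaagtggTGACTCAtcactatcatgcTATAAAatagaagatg
Mmp12, chr9:7347264-7347373: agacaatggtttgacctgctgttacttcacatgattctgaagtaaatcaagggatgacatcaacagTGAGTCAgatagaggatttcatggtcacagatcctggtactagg
Mmp3, chr9:7445712-7445821: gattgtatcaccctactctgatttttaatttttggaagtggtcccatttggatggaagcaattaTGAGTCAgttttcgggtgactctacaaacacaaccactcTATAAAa
Mmp10, chr9:7502232-7502341: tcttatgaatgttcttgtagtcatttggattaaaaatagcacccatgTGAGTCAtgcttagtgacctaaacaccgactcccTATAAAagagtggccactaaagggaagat
The motif began 35 bases before the start in Mmp13, 44 in Mmp12, 46 in Mmp3 and 63 in Mmp10, as TGACTCA in Mmp13 and as TGAGTCA in the other 3. Between its end and TATAAA lay 12 bases in Mmp13, 27 in Mmp10 and 32 in Mmp3, and the run of Mmp12 holds no TATAAA. Such a match describes the sequence and says nothing of binding in these skins.

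The 3 tested genes that share this stretch and these letters had 3 different orders of libraries. Mmp12, the elastase of macrophages, had 20.3 FPKM in WT replicate 1, 2.91 FPKM in WT replicate 2, and 2.70 and 0.299 FPKM in KO. Its WT libraries were 6.98-fold apart, the widest gap between WT libraries among the 25 tested genes, and KO replicate 1 was just under WT replicate 2. The log2 difference was -2.06 (standard error 0.93, adjusted p = 0.327 by limma), -0.84 without WT replicate 1 and -1.30 without KO replicate 2. Exons of Mmp12 overlap those of Mmp1b on the opposite strand, and Mmp1b was listed at 0 in 3 of the 4 libraries. Whether fragments of the overlap entered the Mmp12 values was not tested.

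Mmp3, stromelysin 1, which fibroblasts release and which also activates other MMP precursors, had 11.4 and 7.08 FPKM in WT against 16.5 and 1.25 FPKM in KO. The KO libraries were 13.2-fold apart, on either side of both WT libraries, with a log2 difference of -0.67 (standard error 0.97, adjusted p = 0.718 by limma). That difference was 0.81 if KO replicate 2 was left out and -2.15 if KO replicate 1 was. Mmp3 and Mmp10 share 8.01% and 8.38% of their 50-base stretches, so a few fragments of one may be counted for the other. Mmp13, the main collagenase of rodents, had 2.77 and 6.15 FPKM in WT, compared with 3.10 and 0.680 FPKM in KO. Its groups overlapped, and the log2 difference was -0.99 (standard error 0.55, adjusted p = 0.387 by limma). Leaving out KO replicate 1 gave -1.63, leaving out KO replicate 2 gave -0.34 and leaving out WT replicate 2 gave -0.52. Mmp8, the collagenase stored by neutrophils, was under the filter with 0.640 and 0.521 FPKM in the WT group against 0.121 and 0.0651 FPKM in KO. These values correspond to an estimated 27.3, 18.1, 4.07 and 2.04 fragments, too few to measure the size of the gap between the groups. Mmp10 reached 0.748 FPKM, in WT replicate 2, and Mmp1a, Mmp1b, Mmp7 and Mmp20 did not exceed 0.0878 FPKM in any library.

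Outside that stretch, Mmp11, stromelysin 3, which is usually expressed by fibroblasts next to growing epithelium, stood farther from the WT mean in KO replicate 1 than any of the other 24 tested genes. It had 2.98 and 2.87 FPKM in WT, 16.5 FPKM in KO replicate 1 and 1.04 FPKM in KO replicate 2. The log2 difference of 0.61 (standard error 1.00, adjusted p = 0.752 by limma) averages a value far above and a value far below WT. Without KO replicate 2 it was 2.16, and without KO replicate 1 it was -0.94. The 10 hair follicle markers had 9 of their highest values in the same library, and their sums were 14.7 and 4.003 FPKM in WT, 333 FPKM in KO replicate 1 and 24.3 FPKM in KO replicate 2, with Krt25, Krt27 and Krt35 at 0 in at least 1 library. Their part in the Mmp11 values was not tested. Exons of Mmp11 overlap Gm867 on the same strand.

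Mmp19 was the MMP with the smallest p. This enzyme, which cuts basement membrane proteins and is found in keratinocytes and macrophages (chr10:128228009-128237880 in mm9), had 20.2 and 13.5 FPKM in WT against 5.47 and 1.43 FPKM in KO. The lower WT library was above the higher KO library, and the KO libraries were 3.82-fold apart. Its log2 difference was -2.15 (standard error 0.53, adjusted p = 0.248 by limma), -1.44 without KO replicate 2 and -2.85 without KO replicate 1. The unadjusted p was 0.00909 in the limma fit. Its exons overlap 1110012D08Rik on the opposite strand. The macrophage sums were lower in both KO libraries by the values given above, although Cd163 and Mrc1 overlapped between the groups. The keratinocyte sums went the other way, with 3490 and 2738 FPKM in WT against 7790 and 5012 FPKM in KO. The part of either list in Mmp19 was not tested.

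Of the remaining MMPs, Mmp23, a membrane-tethered member without the usual binding domain for substrates, was nearly equal in WT, at 2.79 and 2.77 FPKM, and 17.6-fold apart in KO, at 6.42 and 0.364 FPKM. The lowest of these values is an estimated 6.66 fragments. Its log2 difference was -0.25 (standard error 0.80, adjusted p = 0.879 by limma). This became 0.97 with KO replicate 2 left out and -1.47 with KO replicate 1 left out. Mmp28, also called epilysin and made by keratinocytes, had 2.76 and 5.06 FPKM in WT, compared with 4.74 and 2.45 FPKM in KO, and its groups overlapped (log2 difference -0.10, or 0.26 if KO replicate 2 was left out, standard error 0.39, adjusted p = 0.90 by limma). Mmp20, Mmp21 and Mmp27 were under the filter and reached at most 0.990 FPKM, in Mmp27.

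**Figure D4:**
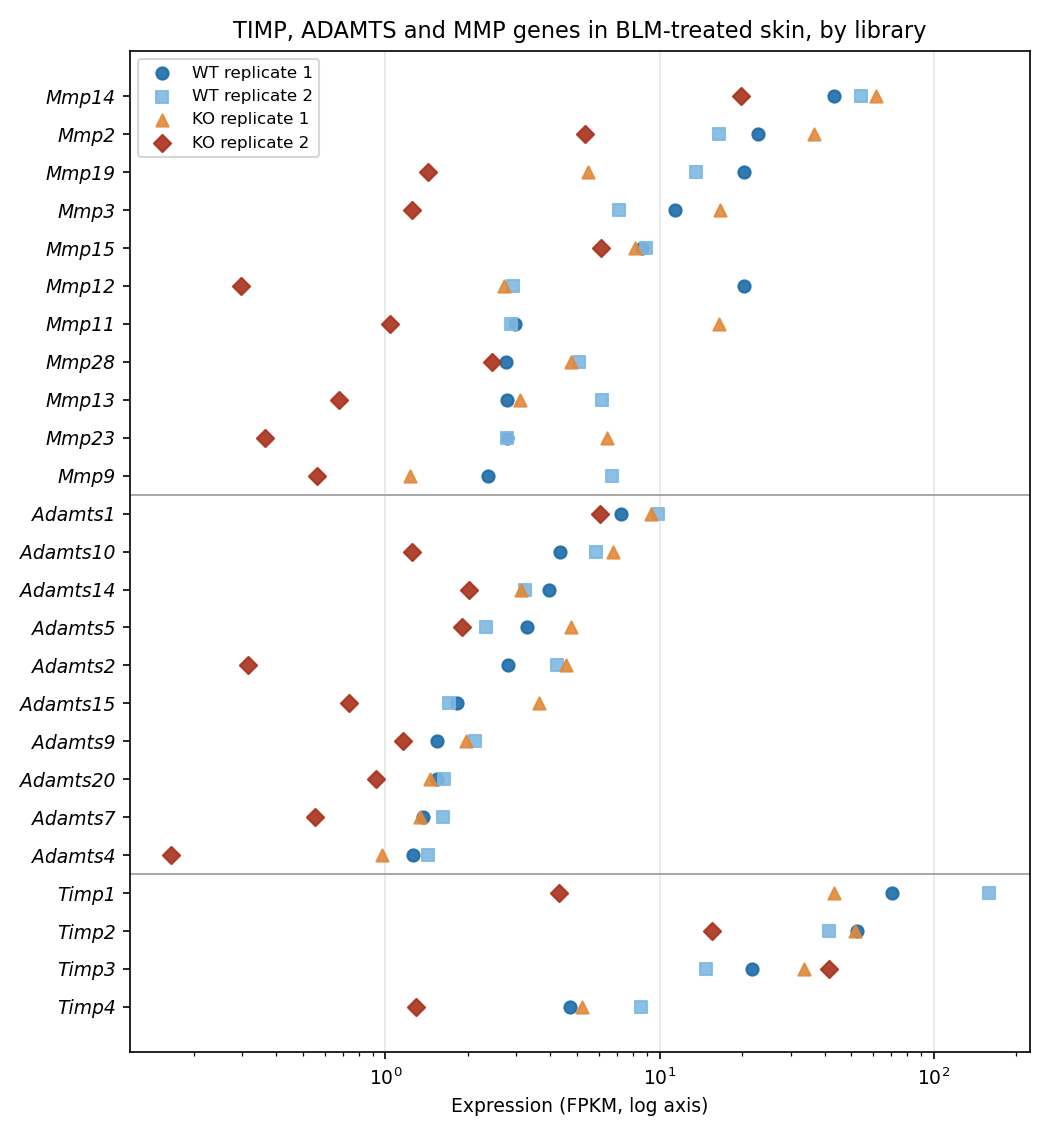
FPKM on a log axis (x) of the 25 tested genes by family, with 1 symbol per library. KO replicate 2 (diamonds) is the lowest of the 4 libraries in every gene but Timp3, and KO replicate 1 (triangles) is the highest in 9 genes, Mmp14, Mmp2, Mmp3, Mmp11 and Mmp23 among the MMPs.

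The ADAMTS genes were lower in level than the leading MMPs and TIMPs, with sums of 31.8 and 36.5 FPKM in the WT group against 40.4 and 15.9 FPKM in KO. Adamts1, an enzyme that cuts versican and aggrecan, was the most abundant of them in all 4 libraries, with 7.25 and 9.87 FPKM in WT against 9.33 and 6.04 FPKM in KO. These values are close together, and the log2 difference was -0.15 (standard error 0.31, adjusted p = 0.806 by limma), or 0.13 with KO replicate 2 left out. Of the 7 ADAMTS genes that cut such proteoglycans, 6 were tested and only Adamts8 was under the filter, with at most 0.583 FPKM. Adamts4, an aggrecanase induced by inflammatory cytokines, had 1.26 and 1.43 FPKM in WT, compared with 0.975 and 0.165 FPKM in KO. The groups did not overlap, but Adamts4 reached 1 FPKM only in WT and so passed the filter through that group alone. Its lowest value is an estimated 9.26 fragments (log2 difference -0.63, standard error 0.33, adjusted p = 0.373 by limma). The difference was -0.25 with KO replicate 2 left out.

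Adamts5, the other main aggrecanase, had 3.29 and 2.32 FPKM in the WT group against 4.73 and 1.90 FPKM in KO, with a log2 difference of 0.11 (standard error 0.40, adjusted p = 0.896 by limma), 0.60 with KO replicate 2 left out and -0.38 with KO replicate 1 left out. Adamts15 had 1.83 and 1.71 FPKM in WT against 3.62 and 0.738 FPKM in KO. In both genes KO replicate 1 was highest and KO replicate 2 lowest, and the log2 difference of Adamts15, 0.04 (standard error 0.50, adjusted p = 0.973 by limma), changed sign with the scaling and was -0.04 with median-ratio factors, and it was 0.74 with KO replicate 2 left out and -0.67 with KO replicate 1 left out. Adamts9, which cuts versican, had 1.54 and 2.13 FPKM in WT, compared with 1.96 and 1.16 FPKM in KO (log2 difference -0.16, or 0.071 if KO replicate 2 was left out, standard error 0.29, adjusted p = 0.781 by limma). Adamts20, known in mice for its part in the colonisation of skin by pigment cells, had 1.55 and 1.64 FPKM in the WT group against 1.45 and 0.925 FPKM in KO (log2 difference -0.25, standard error 0.26, adjusted p = 0.601 by limma), and leaving out KO replicate 2 gave -0.078. Both genes varied little beside the other members.

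Adamts2 and Adamts14 remove the amino-terminal propeptide of fibrillar procollagens, a step that collagen fibrils need. Adamts2 had 2.80 and 4.23 FPKM in WT against 4.54 and 0.316 FPKM in KO, a 14.4-fold gap between the KO libraries, and its log2 difference was -0.72 (standard error 0.70, adjusted p = 0.586 by limma). It was 0.31 in the fit that left out KO replicate 2 and -1.76 in the fit that left out KO replicate 1. Adamts14 had 3.95 and 3.22 FPKM in WT, compared with 3.13 and 2.02 FPKM in KO, a 1.55-fold gap between the KO libraries, and its log2 difference was -0.37 (standard error 0.28, adjusted p = 0.493 by limma), or -0.15 with KO replicate 2 left out. The enzymes of the same step thus differed in how far KO replicate 2 lay from the rest. Their relative Adamts3 was under the filter, with at most 0.127 FPKM.

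Adamts10, which is tied to fibrillin microfibrils, had 4.32 and 5.86 FPKM in the WT group against 6.77 and 1.25 FPKM in KO (log2 difference -0.53, standard error 0.62, adjusted p = 0.647 by limma). The fit without KO replicate 2 turned this to 0.36, while that without KO replicate 1 gave -1.43. Adamts7, which cuts cartilage oligomeric matrix protein, had 1.37 and 1.62 FPKM in WT against 1.33 and 0.552 FPKM in KO (log2 difference -0.39, standard error 0.30, adjusted p = 0.50 by limma). KO replicate 2 was lowest in both, and without it the difference of Adamts7 was -0.094. Adamts12, with the same substrate, reached 1.27 FPKM in WT replicate 2, was under 1 FPKM elsewhere and was not tested. Adamts13, which cuts von Willebrand factor and is made in the liver, did not exceed 0.0915 FPKM. The other 5 ADAMTS genes under the filter reached at most 0.824 FPKM, in Adamts6. Exons of Adamts7 and Adamts9, like those of Mmp28, overlap other genes on the opposite strand.

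Across the 3 families, KO replicate 2 had the lowest value of the 4 libraries in 24 of the 25 tested genes (96%), against 33.3% of all 13027 tested genes. In 9 of the 25 (36%), KO replicate 1 was above both WT libraries and KO replicate 2 below both, an order that 7.41% of all tested genes had. These 9 were Mmp2, Mmp3, Mmp11, Mmp14, Mmp23, Adamts2, Adamts5, Adamts10 and Adamts15. The fibroblast markers had the same order: 9 of 9 were lowest in KO replicate 2 and 8 of 9 highest in KO replicate 1, with 0 of 9 at 0 in any library. The mast cell markers summed to 67.7 and 70.7 FPKM in WT, 99.7 FPKM in KO replicate 1 and 11.2 FPKM in KO replicate 2, again with 0 of 5 at 0. The endothelial list summed to 67.6 and 98.1 FPKM in WT, compared with 93.0 and 7.88 FPKM in KO, and the adipocyte list to 1753 and 4798 FPKM in the WT group against 2221 and 208 FPKM in KO. The part of these lists in the values of the 9 genes was not tested. The 9 genes with both KO libraries below both WT libraries, Mmp9, Mmp12 and Mmp19 among them, instead had KO replicate 1 on the side of KO replicate 2. In some, KO replicate 1 was just under the lower WT library, as in Adamts7 (1.33 against 1.37 FPKM) and Adamts14 (3.13 against 3.22 FPKM). Of the marker lists, 8 of 10 macrophage, 6 of 8 neutrophil and 5 of 6 skeletal muscle genes had this order. So did 0 of 9 fibroblast markers and 20.5% of all tested genes, and the part of these lists was not tested. Leaving out KO replicate 1, 11 of the 25 genes passed the adjusted threshold, all lower in KO, and so did 2058 of all tested genes (15.8%) in either direction. The 11 were Mmp2, Mmp3, Mmp13, Mmp14, Mmp19, Mmp23, Adamts2, Adamts10, Timp1, Timp2 and Timp4. Leaving out KO replicate 2, only Mmp11 passed, as 1 of 43 genes of the table (0.33%). In both fits the remaining KO library was assumed to vary like the WT libraries, so these counts do not test the genotype.

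The genes that act with these families were also read from lists. Of 26 activators, inhibitors and other regulators of MMPs and procollagen processing, 17 were tested and 0 passed the adjusted threshold, while 2 were lower and 0 higher at the unadjusted one (4.14% and 6.16% of all tested genes), with a median log2 difference of -0.36. That median turned to 0.065 without KO replicate 2, while without KO replicate 1 it stood at -0.87. In 5 of the 17 both KO values were under both WT values, and in 1 above them, orders that 20.5% and 35.3% of all tested genes had. Plaur, the receptor that focuses urokinase and so plasmin, an activator of MMP precursors, at the cell surface, had 32.6 and 35.5 FPKM in WT against 6.04 and 1.54 FPKM in KO. Its ligand urokinase, Plau, was far closer between the groups, with 20.4 and 14.6 FPKM in WT, compared with 16.3 and 11.6 FPKM in KO. The log2 differences were -3.05 for Plaur (standard error 0.51, adjusted p = 0.248 by limma), which was lower at the unadjusted threshold and stood at -2.31 with KO replicate 2 left out, and -0.31 for Plau (standard error 0.30, adjusted p = 0.589 by limma), which was -0.079 with KO replicate 2 left out. Furin, which removes the propeptide of MMP14 and of many ADAMTS enzymes, had 31.1 and 29.0 FPKM in WT against 27.9 and 19.1 FPKM in KO.

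Of 12 ADAM genes, the membrane-bound relatives of the ADAMTS enzymes, 8 were tested, 1 was lower and 0 were higher at the unadjusted threshold (again beside 4.14% and 6.16% of all tested genes), and 0 passed the adjusted one. The median log2 difference was -0.13, or -0.51 without KO replicate 1 and -0.027 without KO replicate 2, with 3 genes lower in both KO libraries and 3 higher (20.5% and 35.3% over all tested genes). The gene lower at that threshold was Adam8, a leukocyte sheddase, with 17.9 and 19.9 FPKM in WT, compared with 6.06 and 3.43 FPKM in KO. Adam10, another sheddase, had 13.6 and 7.80 FPKM in WT against 14.4 and 15.1 FPKM in KO. Adam17, the sheddase blocked by TIMP3, had 11.5 and 10.7 FPKM in the WT group against 12.8 and 14.0 FPKM in KO. Of 7 ADAMTS-like genes, which lack the protease part, 3 were tested and 0 passed either threshold, with a median of -0.59, or -1.04 with KO replicate 1 left out and -0.14 with KO replicate 2 left out. Of 18 matrix substrates, 14 were tested, 2 were lower and 0 higher at the unadjusted threshold (4.14% and 6.16% over all tested genes), 0 passed the adjusted one, and the median of -1.07 became -2.73 without KO replicate 1 and 0.38 without KO replicate 2. The 2 were fibronectin (Fn1), with 91.5 and 84.9 FPKM in WT against 20.6 and 1.09 FPKM in KO, and osteopontin (Spp1), with 79.4 and 84.9 FPKM in WT, compared with 39.9 and 5.32 FPKM in KO. With KO replicate 2 left out, the log2 difference moved from -3.73 to -2.05 for Fn1 and from -2.37 to -1.02 for Spp1. Lamb3, a laminin chain of the epidermal basement membrane, had 8.65 and 12.6 FPKM in WT against 15.3 and 22.0 FPKM in KO, without overlap. Col3a1, a fibrillar collagen cut by the collagenases, had 72.4 and 60.9 FPKM in the WT group against 114 and 6.45 FPKM in KO. Its order of libraries was that of Mmp2 and Mmp3.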

How the data were processed

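Skin RNA after BLM was measured in 4 libraries, with group and replicate number taken from their labels. Per its methods, the study aligned reads to mm9 and counted reads per gene, and the submitters' processing notes name HISAT2 (2.0.1) and StringTie (2.0.6). The table that the authors deposited holds FPKM, in which transcript length and depth are already divided out: 99.99301% of its values above 0 are not whole. The count models planned in case it held counts were therefore not run. How multimapping reads and strand were treated is not given in the sources used here.

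Values were transformed to log2(FPKM + 1), a pseudocount of 1, without further scaling. A gene was tested if 2 or more libraries reached 1 FPKM, which left 13027 genes. The model, limma (version 3.58.1, R 4.3.3), held genotype alone, with variances moderated along their trend with the mean and p-values adjusted after Benjamini and Hochberg. A call needed an adjusted p below 0.05 together with a log2 difference beyond 1 in size. The fit was run on simulated data with genes drawn independently, which does not imitate a library that stands apart like KO replicate 2. Gene places and exon overlaps came from GENCODE vM1 (mm9), promoter windows from RefSeq (GRCm38.p6), read in Python 3.11.15 with pandas 2.3.3. The depth was estimated from the steps of low values in genes with 1 transcript of at least 2000 bases, 1 fragment on 1 kb then being worth 0.0575 to 0.0784 FPKM. Estimated fragments cover counting error only and are approximate.

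The members and all gene lists were chosen with earlier results of these data known. Named were Gsdmd, every member that passed the filter and the others by role. Pathway genes could be named where their mean was at least 10 FPKM, and marker genes beside results they touch. The values of 1 regulator gene are not reported here. Same-numbered libraries were not treated as pairs: over 13027 genes their deviations from the group means correlated at -0.20, and neither labels nor methods tie a number to a litter or batch. Alternatives were other scalings, pseudocounts and filters, a fit without the trend, the replicate number as a block and leaving out each library, and, added after the data were seen, a crossed block.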

Additional observations from a re-analysis of the deposited data

How the results depend on the processing

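Of the member differences under alternatives that kept all libraries, 212 values had the same direction and side of the threshold and 4 did not. The 4 were of Adamts15, 0.04 as reported, which was -0.042 with median-ratio factors, -0.029 with upper-quartile scaling, -0.0045 with a pseudocount of 0.5 and -0.079 with a pseudocount of 0.1. Timp3 alone was higher at the unadjusted threshold, and with both scalings it lay under the fold limit, so that count was 0 there. When a library was left out the count was 0 to 1. The 1 was Timp3 without WT replicate 1 or KO replicate 1 and Mmp11 without KO replicate 2, and Timp3 was under the fold limit without KO replicate 2 or WT replicate 2. Over all tested genes the unadjusted calls were 707 lower and 632 higher with median-ratio factors and 667 lower and 657 higher with upper-quartile scaling, against 539 and 802 as deposited. With no filter on low values Timp1 lost its unadjusted call, which left 2 members lower, beside 2.21% of all genes. With at least 1 FPKM asked of every library Mmp9 was not tested, and 2 were lower, beside 3.11%.

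Leaving out 1 library mattered most. The number of members past the adjusted threshold ranged from 0 to 11, and of those lower at the unadjusted threshold from 1 to 14. The counts of 11 and 14 came without KO replicate 1, where 2058 of 13027 genes passed the adjusted threshold and 1605 were lower at the unadjusted one. The lowest unadjusted count came without WT replicate 1, with 428 genes lower. The adjusted count of 1, without KO replicate 2, was Mmp11. The MMP median ranged from -1.63 to 0.26, and the ADAMTS median was 0.10 without KO replicate 2. The direction turned in 13 genes, whose log2 differences ranged over the 4 reduced fits from -0.43 to 0.13 (Adamts1), -1.43 to 0.36 (Adamts10), -0.67 to 0.74 (Adamts15), -1.76 to 0.31 (Adamts2), -0.38 to 0.60 (Adamts5), -0.38 to 0.071 (Adamts9), -0.94 to 2.16 (Mmp11), -1.25 to 0.33 (Mmp14), -1.69 to 0.87 (Mmp2), -1.47 to 0.97 (Mmp23), -0.47 to 0.26 (Mmp28), -2.15 to 0.81 (Mmp3) and -1.52 to 0.15 (Timp2). The cause was not tested, and a fit with 1 library in a group takes its spread from the other group.

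With the replicate block, 4 members were lower at the unadjusted threshold, Mmp12 being added, beside 686 of 13027 genes, and the smallest adjusted p of a member was 0.127 in limma. With the crossed block it was 0.153 and 3 were lower, beside 681 genes. Neither block gave an adjusted call. Count models were not run. Depth limits the members under the filter and the lowest values of Mmp23 and Adamts4 in KO replicate 2, which rest on fewer than 10 estimated fragments.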
